A study of Mus musculus with 18 samples.

Results

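The genes described here are 37 genes of hepatic fatty acid oxidation, ketone body production and the PPARα response, Ppara itself included. They were taken by symbol from a table of 58126 genes measured in 18 mouse liver libraries, and 37 of 37 were found. All 37 also passed the filter on low values. PPARα is a nuclear receptor that is activated by fatty acids and binds DNA as a pair with RXR at direct repeats of a short half-site. Its targets carry fatty acids into mitochondria and peroxisomes, cut them down by β-oxidation and turn the acetyl-CoA into ketone bodies. In liver the programme is best known for the response to fasting, and rodents answer PPARα ligands with more peroxisomes and strong induction of peroxisomal and thioesterase genes.

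The libraries came from C57BL/6 mice whose Ftcd was knocked out in liver (LKO) or which were labelled wild type (WT). Ftcd encodes an enzyme of histidine breakdown that hands a one-carbon unit to folate. Part of the mice received diethylnitrosamine (DEN), a liver carcinogen, as 20 mg/kg on postnatal day 14, and their tissue was taken 12 months later. The groups were tumour of DEN-treated LKO mice (3 libraries), nontumour liver of DEN-treated LKO mice (3), nontumour liver of DEN-treated WT mice (6), liver of untreated LKO mice (3) and liver of untreated WT mice (3), the untreated mice being 12 months old. They are called DEN LKO tumour, DEN LKO nontumour, DEN WT, LKO and WT below. The driver of the liver-specific deletion is not given in the sources used here, and no label says that replicates are separate animals, so p-values measure the spread between libraries, which may be technical. Values are TPM, a length-corrected share of a library's transcripts, so levels may be compared between genes; the depth behind each value is unknown. In bulk tissue, fewer hepatocytes and less RNA per hepatocyte cannot be told apart.

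Some facts about the libraries touch the results. Ftcd was at 0.1 to 3.16 TPM in the 9 libraries labelled LKO, and at 61.17 to 106.1 TPM in 6 of the 9 labelled WT, but at 2.36, 2.5 and 1.77 TPM in DEN WT replicates 1 and 2 and WT replicate 3. Xist and Y-linked genes gave 11 XX and 7 XY libraries. The 9 libraries labelled WT were XX and the 3 LKO libraries XY, so genotype and sex cannot be told apart in untreated liver. Of the DEN LKO libraries, replicate 1 of tumour and of nontumour were XX and the other 4 were XY. Mitochondrially encoded transcripts took 10.5 to 31.44% of TPM in DEN LKO tumour, 17.85 to 36.88% in DEN LKO nontumour, 4.39 to 38.82% in DEN WT, 17.94 to 30.93% in LKO and 4.24 to 23.16% in WT. Summed TPM of 9 hepatocyte markers spanned 23151 to 79199 in DEN LKO tumour, 30498 to 69043 in DEN LKO nontumour, 24647 to 101642 in DEN WT, 19982 to 39778 in LKO and 38939 to 64541 in WT.

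Fabp1, the cytosolic fatty acid binding protein of hepatocytes, was the most abundant member and held 52.1 to 82.7% of the summed member TPM in a library. Its promoter was also the single member promoter that held the receptor's type of repeat. In the RefSeq windows of GRCm38.p6, from 250 bases before to 50 bases after a gene's start, 35 promoters of 32 members were matched. AGGTCA repeated with 1 base between the copies was in 0 of the 35 member promoters and in 13 of 32851 promoters (0.0396%), both strands searched. The looser form with AGGNCA was in 1 of 35 (2.86%), against 125 of all promoters (0.381%). TATAAA on either strand was in 3 of 35 (8.57%), those of Fabp1, Fgf21 and Acot4, against 4473 of all (13.6%). The Fabp1 window (chr6:71199629-71199928, plus strand) is shown as the carrier of the repeat. Those of Acot4 (chr12:84038129-84038428, plus strand) and Acot3 (chr12:84051894-84052193, plus strand) are shown because these neighbouring genes had the clearest differences between genotypes. Capitals mark the repeat, which lies on the opposite strand 67 bases before the Fabp1 start, and TATAAA; where 2 overlapping matches on opposite strands meet in Acot4 they form TTTATAAA. The Acot3 window held neither motif.
Fabp1: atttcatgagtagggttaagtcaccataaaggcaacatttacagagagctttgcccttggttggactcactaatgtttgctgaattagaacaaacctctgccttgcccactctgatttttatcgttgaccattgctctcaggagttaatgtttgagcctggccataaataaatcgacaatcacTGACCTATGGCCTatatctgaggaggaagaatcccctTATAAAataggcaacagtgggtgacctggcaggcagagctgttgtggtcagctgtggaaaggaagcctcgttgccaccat
Acot4: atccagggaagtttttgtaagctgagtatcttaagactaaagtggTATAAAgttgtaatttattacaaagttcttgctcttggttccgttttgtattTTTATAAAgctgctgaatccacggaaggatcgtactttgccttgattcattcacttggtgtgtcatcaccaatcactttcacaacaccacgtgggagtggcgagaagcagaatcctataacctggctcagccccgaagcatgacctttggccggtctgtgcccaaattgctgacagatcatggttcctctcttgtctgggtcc
Acot3: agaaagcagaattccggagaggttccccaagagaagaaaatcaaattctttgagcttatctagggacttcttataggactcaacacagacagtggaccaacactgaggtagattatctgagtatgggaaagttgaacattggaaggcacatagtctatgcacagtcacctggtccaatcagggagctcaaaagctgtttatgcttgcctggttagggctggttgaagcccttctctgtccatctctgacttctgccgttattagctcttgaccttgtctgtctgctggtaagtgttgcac

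The 37 genes were compared between groups with limma on log2(TPM + 1) over 13872 tested genes, with Benjamini-Hochberg adjustment; an adjusted p under 0.05 counted as passing. Fold changes are on that log2 scale, which understates the change of low genes. In untreated liver 1 member passed, Acot3, which fell in LKO livers; 0.433% of all genes passed there. In DEN-treated nontumour liver 36 of 37 members had fold changes below 0 in LKO relative to WT (62% of all genes), 22 of them at an unadjusted p under 0.05 (6.5% of all genes were lower at that level), and 0 passed (0.0577% of all genes did). Between DEN LKO tumour and nontumour 33 of 37 had fold changes above 0 (69% of all genes), and 0 passed (0% of all genes did). DEN alone made no detectable difference in WT livers.

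**Figure D1:**
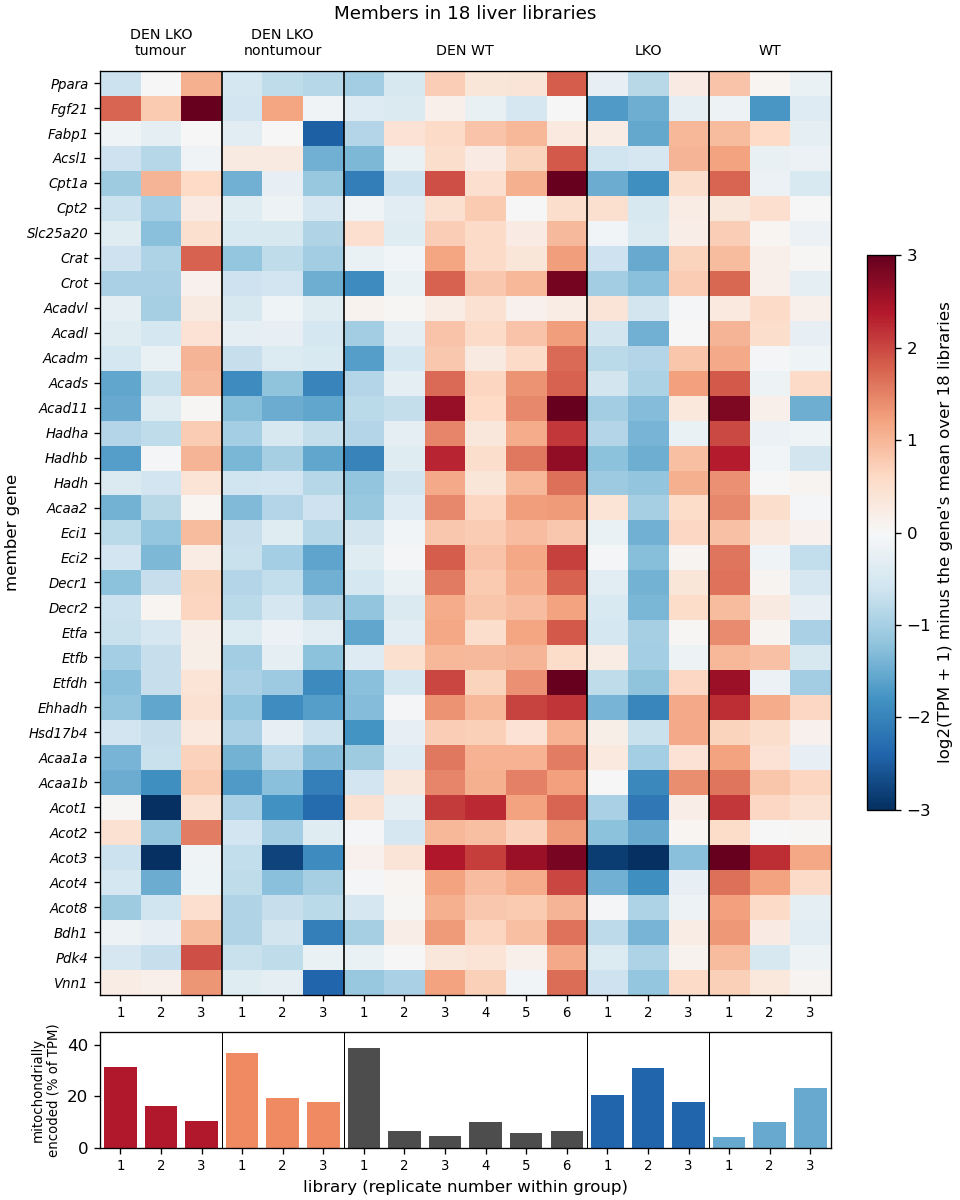
Rows are the 37 genes and columns the 18 libraries, grouped as DEN LKO tumour, DEN LKO nontumour, DEN WT, LKO and WT. Colour gives log2(TPM + 1) minus the gene's mean over the 18 libraries, and the bars below give the percentage of TPM from mitochondrially encoded transcripts. Mostly red columns are DEN LKO tumour replicate 3, DEN WT replicates 3 to 6, LKO replicate 3 and WT replicates 1 and 2. Most members are blue in DEN LKO tumour replicates 1 and 2, the DEN LKO nontumour libraries, DEN WT replicates 1 and 2, LKO replicates 1 and 2 and WT replicate 3.

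The acyl-CoA thioesterases, which split acyl-CoA into free fatty acid and CoA, include Acot3, the member with the lowest fold change in both LKO minus WT comparisons of nontumour liver. Acot1 (cytosolic), Acot2 (mitochondrial), Acot3 and Acot4 (both peroxisomal) sit side by side on one strand of chromosome 12 within 72542 bases (chr12:83987861-84060402, mm10), and Acot8, also peroxisomal, lies on chromosome 2. Acot3 was at 7.41, 0.24 and 11.34 TPM in DEN LKO tumour and at 6.92, 0.92 and 2.55 TPM in DEN LKO nontumour. In DEN WT its lowest value was 13.43, its median 61.9 and its highest 94.4 TPM. In untreated liver it was at 0.82, 0.35 and 4.51 TPM in LKO and at 114.21, 59.97 and 28.61 TPM in WT. Every library labelled LKO thus lay below every library labelled WT for Acot3, the 3 WT-labelled libraries with little Ftcd included.

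Acot4 separated the labels in the same way. It was at 4.67, 1.92 and 6.53 TPM in DEN LKO tumour and at 3.83, 2.45 and 3.12 TPM in DEN LKO nontumour, against 7.04 (lowest), 15.8 (median) and 31.73 TPM (highest) in DEN WT. It was at 2.02, 1.3 and 5.92 TPM in LKO, against 25.05, 18.11 and 11.21 TPM in WT. Acot3 and Acot4 were the 2 members of 37 whose 9 libraries labelled LKO lay below all 9 labelled WT. Among all tested genes 20 did so (0.144%), and 6 (0.0433%) lay the other way round. The XX libraries allow a view within one sex: the XX DEN LKO tumour and nontumour libraries had 7.41 and 6.92 TPM of Acot3, against 13.43 to 94.4 TPM in the 6 DEN WT libraries, all XX. Each was a single library of high mitochondrial share, at 31.44 and 36.88% of TPM. The DEN WT library nearest in share, replicate 1 at 38.82%, was the one with 13.43 TPM. Of all tested genes, 25.3% lay below the 6 DEN WT libraries in that tumour and 24.8% in that nontumour library.

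In untreated liver Acot3 averaged 1.89 ± 2.28 TPM in LKO and 67.6 ± 43.3 TPM in WT (SD, n = 3 each). Its log2 fold change was -4.64 ± 0.90 (SE), with an adjusted p of 0.0218 by limma. It was the only member among the 60 genes that passed (0.433% in either direction, 0.26% lower). The call depended on the libraries and on the model. It ended with a term for XX or XY (log2 fold change -3.28, adjusted p = 0.18), with the mitochondrial share as a covariate (-3.95, 0.0712), with the 2 groups fitted alone (-4.64, 0.0687) and without the filter on low values (-4.64, 0.095). The XX or XY term was set by the DEN LKO libraries alone, since untreated LKO are all XY and WT all XX. The XX libraries there also have the highest mitochondrial shares of their groups (31.44 and 36.88%). The call also ended when LKO replicate 1, LKO replicate 2, WT replicate 1 or WT replicate 2 was left out, at adjusted p from 0.123 to 0.153 by limma. Acot4 averaged 3.08 ± 2.49 TPM in LKO and 18.1 ± 6.92 TPM in WT (SD, n = 3 each), a log2 fold change of -2.33 ± 0.54 that missed the threshold (adjusted p = 0.0828). It passed under median-ratio scaling (adjusted p = 0.0249 by limma), under quantile normalization (0.0304), without the 3 WT-labelled libraries of low Ftcd (0.0396) and without LKO replicate 3 (0.0493).

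The same genes led the comparison in DEN-treated nontumour liver. Acot3 averaged 3.46 ± 3.1 TPM in DEN LKO nontumour (n = 3) and 54.4 ± 33.4 TPM in DEN WT (SD, n = 6), with a log2 fold change of -3.54 ± 0.78 and an adjusted p of 0.14 by limma. Acot4 followed with -1.88 ± 0.47 (adjusted p = 0.188) and Acot1 with -2.95 ± 0.75 (adjusted p = 0.189). Acot1 was at 5.51, 2.6 and 1.56 TPM in DEN LKO nontumour, against 9.66 (lowest), 35.3 (median) and 58.79 TPM (highest) in DEN WT, without overlap. Acot8 did not overlap either, at 3.7, 4.42 and 4.05 TPM in DEN LKO nontumour and 5.21 to 17.28 TPM in DEN WT. Acot2 overlapped, at 1.22 to 2.54 TPM in DEN LKO nontumour and 2.24 to 10.03 TPM in DEN WT. Acot1 and Acot2 share sequence, 19.7% of the 75-base windows of Acot1 being found in Acot2, so reads could be split between them in counting and their separate levels are uncertain. Acot1 and Acot3 share less, 5.87% of Acot1 windows and 3.84% of Acot3 windows. For Acot3 and Acot4 it was 2.11% of Acot3 windows and 1.16% of Acot4 windows.

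**Figure D2:**
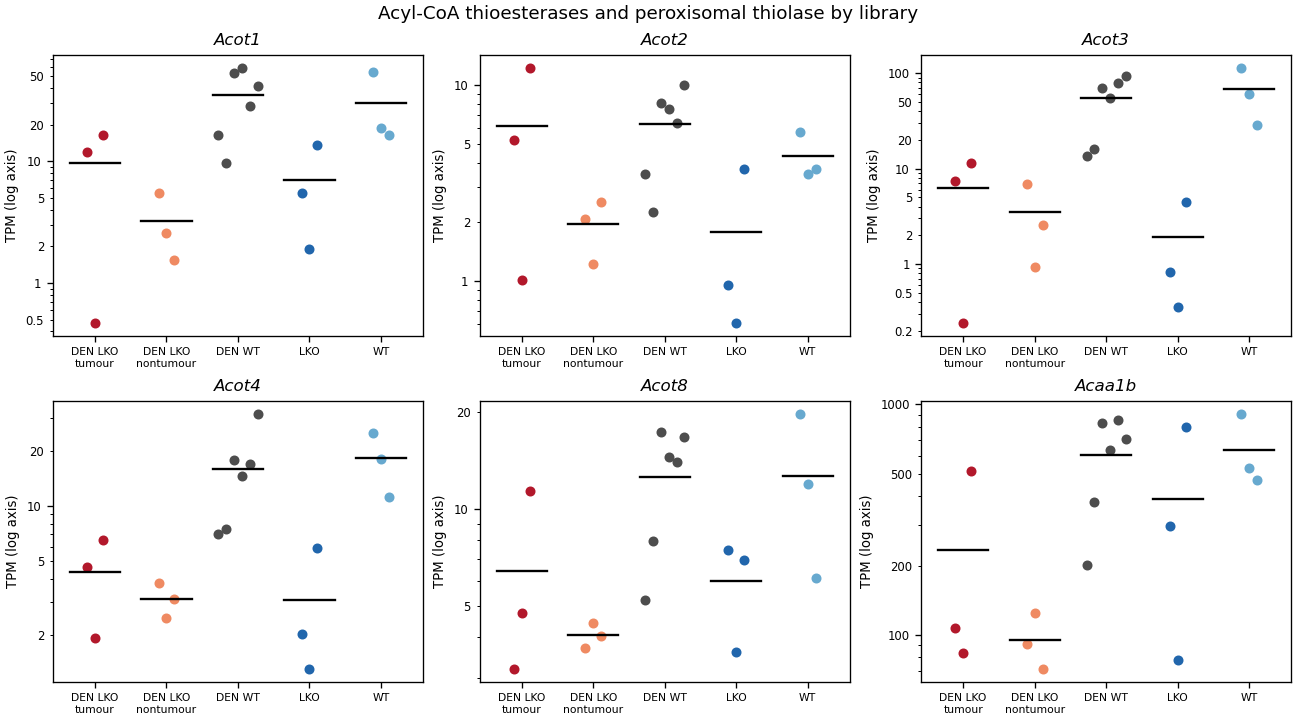
TPM on a log axis in every library, by group, for the 5 thioesterases and the peroxisomal thiolase Acaa1b; dots are libraries and bars are group means. For Acot3 the 9 libraries labelled LKO lie at 0.24 to 11.34 TPM and the 9 labelled WT at 13.43 to 114.21 TPM. Acot4 separates them as well, while Acot2 and Acaa1b overlap between LKO and WT.

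The peroxisomal pathway shortens long and branched fatty acids. Its 4 members had a median log2 fold change of -2.11 in DEN-treated nontumour liver, against -1.88 for the 5 thioesterases, and of -0.89 in untreated liver, against -2.04. Acaa1b, a thiolase of the last step, was at 90.99, 124.18 and 71.15 TPM in DEN LKO nontumour, against 200.26 (lowest), 670 (median) and 855.19 TPM (highest) in DEN WT. The groups did not overlap, and the means were 95.4 ± 26.8 (n = 3) and 600 ± 260 TPM (SD, n = 6), a log2 fold change of -2.52 ± 0.68 with an adjusted p of 0.219 by limma. Ehhadh, the bifunctional enzyme of the middle steps, was at 10.51, 6.11 and 7.17 TPM in DEN LKO nontumour and at 9.43 to 112.77 TPM in DEN WT (log2 fold change -2.43 ± 0.76, adjusted p = 0.291), overlapping through DEN WT replicate 1. In untreated liver Ehhadh was at 8.81, 5.67 and 56.05 TPM in LKO and 118.6, 55.14 and 38.74 TPM in WT (-2.05 ± 0.87, adjusted p = 0.831). Acaa1b averaged 389 ± 367 TPM in LKO and 637 ± 239 TPM in WT (SD, n = 3 each; log2 fold change -1.21), with LKO replicate 3 at 794.22 TPM inside the WT range. Acaa1a and Acaa1b share 27.3% of Acaa1a windows, which makes their split uncertain too. Hsd17b4, the other bifunctional enzyme, had a log2 fold change of -0.77 in DEN-treated nontumour and -0.22 in untreated liver.

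Over the whole set in DEN-treated nontumour liver, the median log2 fold change of the members (LKO minus WT) was -1.39, against -0.19 over all tested genes. With 0 members passing, 8 genes passed in the whole table (0.0577%). The 22 members lower at an unadjusted p under 0.05 stand against 6.5% of all genes, the 36 with a fold change below 0 against 62%, and the 13 whose groups did not overlap, all lower in LKO, against 1.73%. Those 13 were Slc25a20, Crat, Acadvl, Acads, Acad11, Eci2, Decr1, Acaa1b, Acot1, Acot3, Acot4, Acot8 and Pdk4. For Pdk4 the separation lay near the floor, with a highest value of 0.78 TPM in DEN LKO nontumour and a lowest of 0.79 TPM in DEN WT. Members are not independent of each other and were chosen with results known, so these shares describe the set and test nothing.

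The mitochondrial entry and dehydrogenation steps followed the same direction with wide spread in DEN WT. Cpt1a, which makes the acyl-carnitines that enter mitochondria and is the controlled step, was at 7.51, 18.49 and 9.53 TPM in DEN LKO nontumour, against 4.48 (lowest), 39.6 (median) and 205.05 TPM (highest) in DEN WT. That spread gave a log2 fold change of -1.60 ± 0.90 and an adjusted p of 0.421 by limma. The carrier Slc25a20 was tighter, at 29.75 to 40.94 TPM in DEN LKO nontumour and 43.41 to 111.81 TPM in DEN WT. Acads, the dehydrogenase of short chains, was at 8.87, 14.89 and 8.24 TPM in DEN LKO nontumour, against 18.88 (lowest), 74.3 (median) and 124.42 TPM (highest) in DEN WT, without overlap (-2.41 ± 0.69, adjusted p = 0.265). The medium-chain enzyme Acadm differed less, with a log2 fold change of -0.71 and overlapping groups, and the very-long-chain enzyme Acadvl least of the dehydrogenases (-0.52), though without overlap at 154.96 to 197.29 TPM in DEN LKO nontumour and 220.51 to 295.63 TPM in DEN WT.

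Eci2, an isomerase for double bonds of unsaturated fatty acids, was at 40.03, 31.31 and 20.93 TPM in DEN LKO nontumour, against 50.02 (lowest), 131 (median) and 272.35 TPM (highest) in DEN WT (log2 fold change -2.01 ± 0.60, adjusted p = 0.283 by limma). Hadha and Hadhb, which encode the subunits of the mitochondrial trifunctional protein and start 85 bases apart head to head on chromosome 5, had log2 fold changes of -1.39 and -2.09 with overlap. Etfa, Etfb and Etfdh, which pass the electrons to the respiratory chain, had -0.78, -1.46 and -2.24, also with overlap. Bdh1, which makes β-hydroxybutyrate from acetoacetate, averaged 36.6 ± 17.4 TPM in DEN LKO nontumour (n = 3) and 134 ± 70.5 TPM in DEN WT (SD, n = 6), a log2 fold change of -1.77. Pdk4, the kinase that shuts pyruvate out of oxidation, was low throughout at 0.09 to 6.83 TPM. Acsl1, which activates fatty acids to acyl-CoA, had a log2 fold change of -0.59, Fabp1 of -1.32 and Ppara of -1.01, none past the test.

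How many members pass in this comparison depends on which DEN WT libraries count. Without the 3 WT-labelled libraries of low Ftcd, 21 members passed, all lower in DEN LKO nontumour, and 8.35% of all genes passed. Without DEN WT replicate 1 alone, 6 passed (Acads, Ehhadh, Acaa1b, Acot3, Acot4 and Bdh1), with 1.46% of all genes. DEN WT replicate 1 had the lowest value of its group for 31 of the 37 members, and replicates 1 and 2 were the lowest pair for 34. Replicate 1 also had the highest mitochondrial share (38.82%). Replicate 2, at 6.47%, had nearly the share of replicate 6, at 6.51%, which held the highest value for 26 members. Once the mitochondrial share entered as a covariate, the member median was -0.54 against 0.21 over all genes, and 5 members instead of 22 were lower at an unadjusted p under 0.05, where 1.28% of all genes were. With a term for XX or XY the medians were -1.67 and -0.63, and 19 members were lower at that level, where 21.4% of all genes were. The XX DEN LKO nontumour library, with a mitochondrial share of 36.88%, lay below all 6 DEN WT libraries for 21 members, against 24.8% of all tested genes. Relative to DEN WT replicate 1, the library nearest to it in that share, it was lower for 21 members and higher for 16, against 47% of all genes lower and 50.6% higher. Beyond these fits, the part of the mitochondrial share and of sex in these differences was not tested.

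In untreated liver the set had a median log2 fold change of -0.84 (LKO minus WT), against -0.33 over all tested genes, and 37 of 37 fold changes were below 0, against 76.1% of all genes. At an unadjusted p under 0.05, 4 members were lower (Acot1, Acot3, Acot4 and Ehhadh), against 2.7% of all genes. Groups did not overlap for 4 members (Acot1, Acot3, Acot4 and Hadha), all lower in LKO, against 8.97% of all genes. Scaling matters here: under median-ratio scaling the medians were -0.34 for members and 0.00 for all genes, and 5 members turned higher in LKO, Acsl1 among them. Once the mitochondrial share entered as a covariate, the medians were -0.01 and 0.03, with 21 members lower and 16 higher. Acadl, the long-chain dehydrogenase, was at 46.19, 24.61 and 68.73 TPM in LKO and 138.5, 97.84 and 57.51 TPM in WT. Hadha was at 17.98, 12.35 and 29.14 TPM in LKO and 135.62, 30.05 and 30.87 TPM in WT, where 1 WT library was far above the other 2. Neither passed, with log2 fold changes of -1.09 ± 0.57 and -1.38 ± 0.73 and adjusted p of 0.831 each by limma. Fabp1 averaged 9110 ± 6430 TPM in LKO and 11100 ± 4370 TPM in WT (SD, n = 3 each), with a log2 fold change of -0.53. For Ppara it was -0.52, for Cpt1a -1.31, for Acadm -0.60 and for Bdh1 -1.06.

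**Figure D3:**
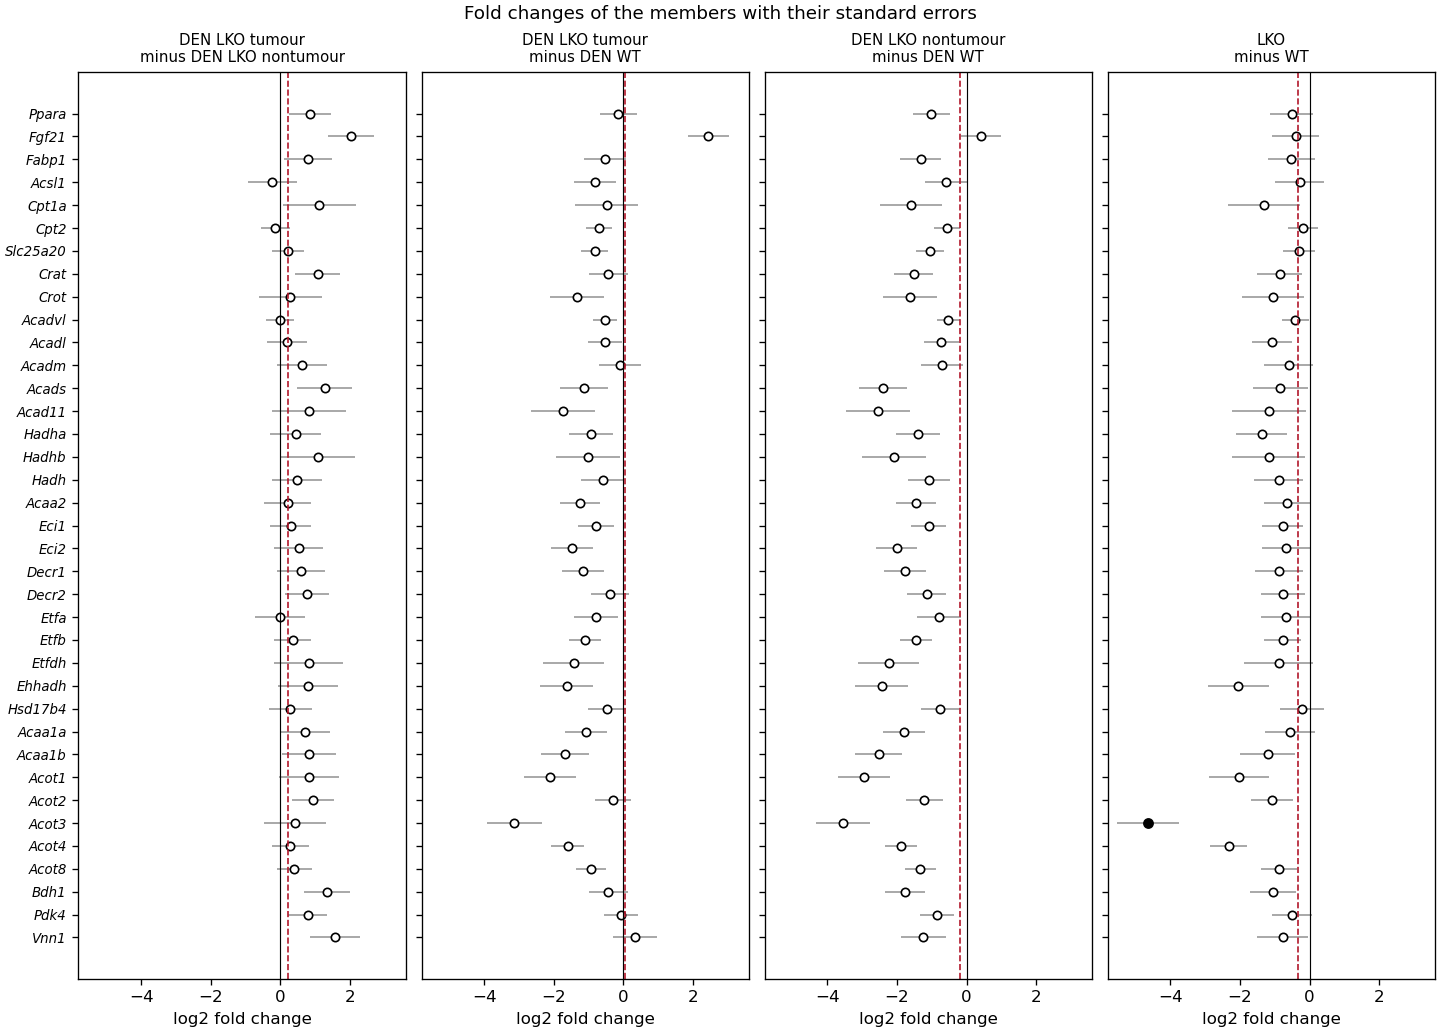
Log2 fold changes of the 37 genes with their standard errors (SE) in 4 comparisons; filled dots passed at an adjusted p under 0.05 by limma and the dashed line is the median of all tested genes. Acot3 in LKO minus WT is the one filled dot, at -4.64. Fgf21 lies at 2.03 and 2.44 in the comparisons of DEN LKO tumour, right of the other members there.

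In DEN LKO tumour most members had higher means than in DEN LKO nontumour, with a median log2 fold change of 0.62 against 0.23 over all genes. The 33 of 37 fold changes above 0 compare with 69% of all genes. By limma, 0 members and 0 genes passed (0%), 2 members were higher at an unadjusted p under 0.05 (1.38% of all genes), and 380 of all genes differed at that level (2.74%). One tumour library carried much of this. DEN LKO tumour replicate 3 was the highest of its group for 36 members, and without it the medians were 0.13 and 0.00, with 22 members higher and 15 lower. That library had the lowest mitochondrial share of its group (10.5%) and the highest summed TPM of 8 adipocyte markers in the study, at 597.36 TPM, against 32.85 and 111.75 TPM in the other tumours and 13.51 to 62.86 TPM in DEN LKO nontumour. Fabp4 (362.05 TPM), Cidec (143.99), Cfd (48.02) and Lpl (43.26) made up that sum, while Adipoq was at 0.04 TPM and Plin1, Lep and Retn were listed at 0. Kupffer cell markers summed to 941.78 TPM in that library, against 153.05 and 180.21 TPM in the other tumours. C1qa (350.16 TPM), C1qb (287.78) and C1qc (208.94) made up most of that sum. Csf1r, Adgre1 and Marco were also highest in that tumour, at 23.23, 5.36 and 2.5 TPM. Clec4f, Vsig4, Timd4 and Cd5l were not, at 41.32, 9.32, 0.47 and 12.7 TPM. The other tumours reached 41.88, 11.26, 0.86 and 15.37 TPM for these. Lymphocyte markers summed to 33.96 TPM, against 4.3 and 9.57 TPM in the other tumours. The part of all these markers in the result was not tested.

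Fgf21, the hepatokine that PPARα induces in fasting and cell stress induces as well, had its highest value in a tumour. It was at 13.05, 6.18 and 69.79 TPM in DEN LKO tumour, at 1.82, 8.49 and 2.88 TPM in DEN LKO nontumour and at 1.92 (lowest), 2.37 (median) and 3.64 TPM (highest) in DEN WT. It was at 0.29, 0.5 and 2.39 TPM in LKO and at 2.77, 0.24 and 2.2 TPM in WT. All 3 tumours lay above the 6 DEN WT libraries, and 1 nontumour library lay above the lowest tumour. Against DEN LKO nontumour the log2 fold change was 2.03 ± 0.67, with an unadjusted p of 0.00737 and an adjusted p of 0.943 by limma. Against DEN WT it was 2.44 ± 0.58, with an adjusted p of 0.0724. Without DEN LKO tumour replicate 1 the second comparison passed (adjusted p = 0.0372), as it did without replicate 2 (0.0357), with the mitochondrial covariate (0.042) and under median-ratio or quantile scaling (0.0235 and 0.0291). Without DEN LKO tumour replicate 3 the log2 fold change was 1.5 with an adjusted p of 0.294 by limma. With a term for XX or XY it was 1.85 (adjusted p = 0.535 by limma). With the 2 groups fitted alone the adjusted p was 0.239 by limma. It was 0.473 with a replicate block, which leaves DEN WT replicates 4 to 6 out of the fold change. Vnn1, a pantetheinase that PPARα strongly induces, was at 23.29, 22.05 and 50.53 TPM in DEN LKO tumour and 15.08, 16.13 and 2.97 TPM in DEN LKO nontumour, without overlap (1.57 ± 0.73, adjusted p = 0.943). Bdh1 did not overlap either, at 67.54, 63.6 and 147.16 TPM in tumour and 40.34, 51.73 and 17.6 TPM in nontumour (1.34 ± 0.66), and Hadh was the other such member, 3 in all against 1.81% of all genes. Crat, Acads and Acot2 followed, with log2 fold changes of 1.07, 1.27 and 0.93 and overlapping groups.

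**Figure D4:**
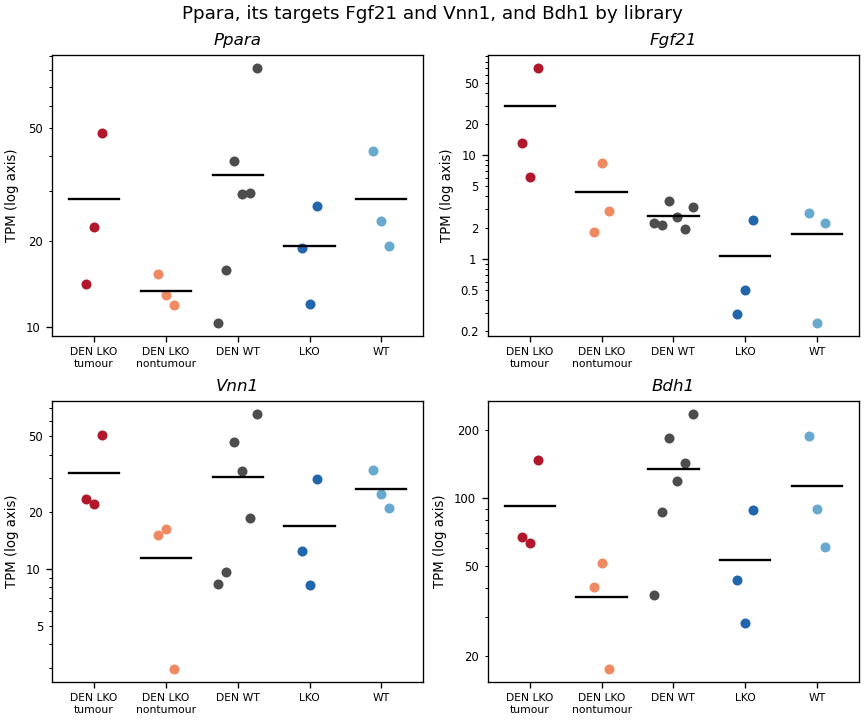
TPM on a log axis in every library, by group, for Ppara, Fgf21, Vnn1 and Bdh1; dots are libraries and bars are group means. The 3 DEN LKO tumours lie at 6.18 to 69.79 TPM for Fgf21, above the 6 DEN WT libraries at 1.92 to 3.64 TPM. For Ppara the tumours, at 14.12 to 48.25 TPM, lie within the DEN WT range of 10.32 to 81.7 TPM.

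Set against DEN WT, Acot3 and Acot1 again had the lowest fold changes of the members in tumour. The median member log2 fold change was -0.82, against 0.04 over all genes, with 35 of 37 below 0, against 47.1%. By limma 0 members passed, where 69 genes did (0.497%), and 9 members were lower at an unadjusted p under 0.05, against 4.3% of all genes. Fgf21 was the 1 member higher at that level, against 6.24%. Groups did not overlap for Acot3 and Acot4 (lower, 1.14% of all genes) and for Fgf21 (higher, 2.05%). Acot3 led them (6.33 ± 5.63 TPM in DEN LKO tumour, n = 3, and 54.4 ± 33.4 TPM in DEN WT, n = 6, SD; log2 fold change -3.13 ± 0.78, adjusted p = 0.0855), then Acot4 (-1.60 ± 0.47, 0.155) and Acot1 (-2.12 ± 0.75, 0.25). Acaa1b and Eci2 had -1.68 and -1.48 with overlap. This comparison and that of DEN LKO nontumour share the DEN WT libraries, so their similarity is in part built in. The set-wide direction depended on the model and on the DEN WT libraries used. When the fit adjusted for mitochondrial share, 22 members were lower and 15 higher, with medians of -0.28 for members and 0.31 for all genes. In that fit 3 members, not 9, were lower at an unadjusted p under 0.05 (3.37% of all genes). A replicate block gave 26 lower and 11 higher (medians -0.41 and 0.24). There DEN WT replicates 4 to 6 had no partner, so the fold changes rested on DEN WT replicates 1 to 3. Replicates 1 and 2 of these have little Ftcd. A term for XX or XY left 35 lower (medians -1.04 and -0.37). The calls turned on scaling and libraries: Fgf21, Acot3 and Acot4 passed under median-ratio scaling, and Acaa2, Acot3 and Acot4 without the 3 WT-labelled libraries of low Ftcd.

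DEN treatment alone moved none of the members detectably. Between DEN WT and WT, the median log2 fold change was 0.08 for members and 0.01 for all genes. By limma, 0 members and 0 genes passed (0%), and 0 members and 95 of all genes (0.685%) differed at an unadjusted p under 0.05. Acot3 averaged 54.4 ± 33.4 TPM in DEN WT (n = 6) and 67.6 ± 43.3 TPM in WT (SD, n = 3). Eci2 had the smallest p, at 147 ± 89.7 TPM in DEN WT and 98.7 ± 86.9 TPM in WT (log2 fold change 0.67 ± 0.60, adjusted p = 1). Fgf21, Acot2, Acad11, Slc25a20 and Ehhadh followed, with log2 fold changes of 0.52, 0.36, 0.62, 0.24 and -0.45. Between DEN LKO nontumour and LKO, the medians were -0.43 and 0.12, with 30 of 37 members below 0, against 38% of all genes. There 0 members passed by limma, where 9 genes did (0.0649%), and 0 members had an unadjusted p under 0.05, against 5.96% of all genes. Acads and Slc25a20 did not overlap, both lower in DEN LKO nontumour, against 2.46% of all genes. Acads was at 8.24 to 14.89 TPM in DEN LKO nontumour and 17.97 to 84.57 TPM in LKO (-1.60 ± 0.79, adjusted p = 0.867). Fgf21, Acaa1b, Acaa1a, Acaa2 and Hsd17b4 followed, with log2 fold changes of 1.33, -1.49, -1.07, -0.93 and -0.83.

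The genotype difference was not shown to depend on DEN. In the interaction term (LKO minus WT after DEN, less LKO minus WT without DEN) 0 members and 0 genes passed by limma (0%). At an unadjusted p under 0.05, 0 members and 332 of all genes (2.39%) differed. The median was -0.46 for members and 0.11 for all genes, and 33 of 37 were below 0, against 40.8% of all genes. Acads (-1.58 ± 1.05), Eci2 (-1.34 ± 0.92), Acaa1a (-1.22 ± 0.93), Acaa1b (-1.31 ± 1.04), Slc25a20 (-0.74 ± 0.61) and Etfdh (-1.35 ± 1.32) had the smallest p, and each adjusted p was 1.

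Of 56 other genes of the pathway, 51 were tested; Cpt1b, Cpt1c, Acot5, Ucp3 and Aqp7 did not pass the filter. One passed in any comparison. Cyp4a14, the fatty acid ω-hydroxylase that PPARα ligands induce in rodents, was at 13.31, 0.09 and 6.28 TPM in DEN LKO tumour, against 27.36 (lowest) to 363.76 TPM (highest) in DEN WT. It fell in tumours with a log2 fold change of -4.82 ± 0.95 and an adjusted p of 0.0268 by limma, a call that ended with a term for XX or XY (-3.52, 0.535) and without tumour replicate 2 (0.202) or 3 (0.0807). The call was also lost without DEN WT replicate 3, 4, 5 or 6 (adjusted p from 0.0528 to 0.0681 by limma) and with a pseudocount of 0.1 (0.0529). The same held without the filter (0.0782) and with the 2 groups fitted alone (0.136). A replicate block, which rests on DEN WT replicates 1 to 3, ended the call too (-4.14, 0.473). Cyp4a14 was at 10.94, 3.01 and 3.06 TPM in DEN LKO nontumour (-4.56 ± 0.95 against DEN WT, adjusted p = 0.117). In untreated liver it was at 2.5, 0.16 and 18.42 TPM in LKO and at 316.74, 87.04 and 47.82 TPM in WT (-4.69 ± 1.1, adjusted p = 0.0828). For Cyp4a14, too, no library labelled LKO reached the lowest library labelled WT. In DEN-treated nontumour liver 48 of the 51 genes were below 0 (62% of all genes) and 19 were lower at an unadjusted p under 0.05 (6.5%). Plin2, a lipid droplet coat protein, had -2.29 ± 0.69 there and Mlycd, which clears the malonyl-CoA that blocks Cpt1a, -1.78 ± 0.57, with adjusted p of 0.283 and 0.298.

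The spread within groups was unequal among members. Over the 6 DEN WT libraries the highest value was 45.8 times the lowest for Cpt1a, 31 times for Crot and 30.8 times for Hadhb, but 1.34 times for Acadvl, 1.9 times for Fgf21 and 2.16 times for Cpt2, with a median of 6.09 over members. Members of high ratio had transcripts of lower GC content. The 10 members with the largest ratio had a median GC of 47.6% (44.1 to 51.3), against 53.9% (45.8 to 58.9) for the 10 with the smallest. Their transcripts were also longer, with a median of 2990 bases against 1420. Over 5517 genes averaging 5 TPM or more the same order held, with median ratios of 5.47, 4.55 and 3.17 times in genes of low, middle and high GC, equal in number. Median transcript length fell in that order too, at 2970, 2350 and 1960 bases, so GC content and length were not separated. All 37 members divided by the same GC bounds, including Acot2 and Pdk4, which averaged less than 5 TPM, had median ratios of 10.7 (13 members), 6.09 (17) and 3.32 times (7). The part of base composition or transcript length in the members' group differences was not tested.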

How the data were processed

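The 18 mouse liver RNA-seq libraries were given by the authors as 1 table of TPM per gene, deposited with gene symbols. TRIzol RNA and a TruSeq kit were used, per the labels' protocols. The submitters' processing notes name HISAT, RSEM, fastp and mm10, with versions not given in the sources used here. TPM sum to the same total in each library, so one abundant transcript class lowers all others, and counts and depth cannot be recovered from TPM. No interval that needs counts was computed.

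Groups came from the labels. A gene was tested if 3 or more of the 18 libraries had at least 1 TPM, which held for 13872 of 29866 genes above 0. Limma 3.58.1 in R 4.3.3 fitted log2(TPM + 1) over all libraries with 1 mean per group (13 residual degrees of freedom, variance trend). Each of 6 comparisons and the genotype-by-DEN interaction was adjusted over all tested genes (Benjamini-Hochberg). Alternatives were a pseudocount of 0.1, no filter, median-ratio and quantile scaling, a term for XX or XY, the mitochondrial share as covariate, no low-Ftcd WT-labelled libraries, the compared groups alone, a replicate block and each replicate left out. The XX or XY term is set by the DEN LKO groups alone, since the other groups hold only XX or only XY libraries. With the replicate block, DEN WT replicates 4 to 6 have no same-numbered library. Block fold changes that involve DEN WT therefore rest on its replicates 1 to 3. Tested on simulated data for DEN LKO nontumour minus DEN WT with 13872 genes, the fit recovered 63% of 100 genes changed by 2 on the log2 scale and 97% of 100 changed by 4; for LKO minus WT it recovered 55% and 94%. The simulated noise was drawn independently for each gene and library. It held no shifts shared by the genes of a library, so recovery in the real data may differ.

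The members and lists were chosen with earlier results of these data known. Named in each comparison were members that passed, else the 6 of smallest p. A further list of 12 members was named whatever their result, though not in every comparison. Of other pathway genes, those that passed were named, as were Plin2 and Mlycd, which did not pass. Other genes were named after their values were seen. Gene coordinates are from GENCODE M21 (mm10). Hepatocyte marker Tf was not matched. Kupffer cell, lymphocyte, stellate cell, endothelial, cholangiocyte and red cell marker sums were computed as well: over the 18 libraries they spanned 55.64 to 941.78, 3.5 to 81.67, 11.18 to 174.46, 30.94 to 150.57, 7.04 to 184.29 and 618.17 to 3845.78 TPM. Of 8 adipocyte markers 1 was at 0 in every library. Library pairs correlated at 0.716 to 0.96, and 0 pairs were identical. Figures used Python 3.11.15 with numpy 2.4.6, pandas 2.3.3 and matplotlib 3.10.9.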

Additional observations from a re-analysis of the deposited data

Results flagged for a closer look

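Of 37 members checked in the 6 DEN WT libraries, 1 had a library far from the others. Fabp1 was at 4256.31 TPM in DEN WT replicate 1, and the nearest of the other 5 was at 9637.75 TPM. The gap was 0.627 of the group's range on the log2(TPM + 1) scale, on which Dixon's test was run, just above the 95% critical value for 6 samples. Chance alone marks about 1 in 20 such groups. Replicate 1 is also one of the WT-labelled libraries with little Ftcd (2.36 TPM) and has the highest mitochondrial share (38.82%).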

How the results depend on the processing

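The count of members that passed stayed at 0 under every alternative run for DEN LKO tumour minus nontumour, DEN WT minus WT, DEN LKO nontumour minus LKO and the interaction, and with pseudocount 0.1 it was unchanged in all comparisons. For DEN LKO tumour minus DEN WT the count was 0 in the main setting (0.497% of all genes passed), 3 with median-ratio scaling (2.26%), 3 with quantile normalization (1.69%), 1 with the mitochondrial covariate (1.16%) and 3 without the low-Ftcd WT-labelled libraries (3.03%); leaving out single replicates gave 0 to 2. For DEN LKO nontumour minus DEN WT it was 21 without the low-Ftcd libraries (8.35%) and 0 to 6 with a replicate left out. For LKO minus WT the single call, Acot3, became 0 without the filter, with the XX or XY term, with the mitochondrial covariate, with the 2 groups alone and with the replicate block, and 2 with median-ratio scaling (0.692%), quantile normalization (0.577%) or without the low-Ftcd libraries (0.425%); leaving out single replicates gave 0 to 2 (2 without LKO replicate 3). The 3 low-Ftcd libraries are low for most members, so leaving them out raises the WT means by construction; the cause of the other changes was not tested. Median-ratio scaling put the all-gene median of log2 fold changes at 0.02 in DEN LKO tumour minus nontumour (0.23 on TPM as deposited), at 0.02 in DEN LKO nontumour minus DEN WT (-0.19) and at 0.00 in LKO minus WT (-0.33), and that of the members at 0.33, -1.09 and -0.34.

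Of the fold changes of named genes, 18 changed sign under an alternative, none of them past the test in the main setting. In DEN LKO nontumour minus DEN WT these were Fgf21 with the XX or XY term (-0.19) and without nontumour replicate 2 (-0.10), Cpt1a (0.05), Acadm (0.35) and Acsl1 (0.19) with the mitochondrial covariate, and Acsl1 with the replicate block (0.03). In LKO minus WT they were Acsl1 with median-ratio scaling (0.21), quantile normalization (0.26), the XX or XY term (0.07), the mitochondrial covariate (0.35) and without WT replicate 1 (0.18); Ppara (0.15), Cpt1a (0.04) and Acadm (0.27) with the mitochondrial covariate; and Fabp1 without LKO replicate 2 (0.19). In DEN WT minus WT they were Acot2 (-0.04) and Acad11 (-0.13) with the replicate block and Acad11 without WT replicate 3 (-0.36). Over all single replicates left out, these fold changes ran from -0.10 to 0.78 for Fgf21 in DEN LKO nontumour minus DEN WT, from -1.08 to 0.19 for Fabp1 and -0.82 to 0.18 for Acsl1 in LKO minus WT, and from -0.36 to 1.78 for Acad11 in DEN WT minus WT.

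Replicate numbers recur between groups, but same-numbered libraries did not deviate together throughout. The correlations of their deviations ran from -0.63 (replicate 1 of DEN WT and WT) to 0.61 (replicate 1 of DEN LKO tumour and DEN WT). For DEN LKO tumour and nontumour they were 0.35, 0.3 and -0.03 in replicates 1, 2 and 3. Replicate 1 was XX in both of these groups, and replicates 2 and 3 were XY in both. Tumour and nontumour of one number may share an animal, which no label states and these values cannot decide. The main fit did not take the numbers as pairs. With the replicate block the count of members that passed was 0 for LKO minus WT, where Acot3 had an adjusted p of 0.241 by limma, and 0 elsewhere. The number of libraries and the unknown depth limit what can be detected.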
